A study of Mus musculus with 2 samples.

Results

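The 10 genes described here encode the core of the mammalian circadian clock: Arntl, Clock, Npas2, Per1, Per2, Per3, Cry1, Cry2, Dbp and Bhlhe40. Their members in the data were chosen by position, as the differentially methylated regions that overlap the RefSeq body of one of these genes or the 50 kb on either side of it. This gave 24 of the 34139 regions in the authors' deposited list. The list compares 1 whole-genome bisulfite library of PDGFRα+ adipose progenitors with 1 library of CD137+ adipose progenitors, both from C57BL/6 mice and both exposed to dexamethasone (DEX), a synthetic glucocorticoid. Progenitors were taken from subcutaneous or visceral fat by magnetic sorting, grown and given an adipogenic cocktail, per the labels' protocols. The depot behind each library, the number of animals, the age of the mice and the hour at which cells were collected are not stated in the labels. No library without DEX was compared, and both libraries share the DEX exposure.

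The clock is a feedback loop of transcription. BMAL1, the product of Arntl, pairs with CLOCK or its relative NPAS2 and binds E-box sequences to switch on the Per and Cry genes, whose products return to the nucleus and repress that pair. DBP and BHLHE40 are outputs of the same E-boxes that feed back on the loop. Fat cells keep such a clock, and glucocorticoids are known to reset it in peripheral tissues, in part through a direct effect on Per1.

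Each region carries a position and the authors' signed score, which is used here only to describe and rank regions within their list. The score is neither a methylation level nor a percent difference, the methylation of a region in either library is not in the list, and the read depth is unknown. The sign is not defined. The list's name puts PDGFRα+ before CD137+. Were this also the order of subtraction, negative regions would be those less methylated in PDGFRα+ than in CD137+ cells. With 1 library per group no difference could be set against a spread between replicates, no region was tested, and the cell types of the libraries could not be checked against their markers.

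At least 1 region lay in the window of 9 of the 10 clock genes, and Per3 had none. The background was high, since 68.5% of the 21887 protein-coding genes had a region in a window of the same kind. Long genes had regions more often, and 3 clock genes are longer than 60 kb. All 3 of these, Arntl, Clock and Npas2, had a region in the window, against 89.2% of protein-coding genes of at least 60 kb. From 10 to 60 kb, 4 of the 5 Per and Cry genes had one, against 71.9%. Under 10 kb both Dbp and Bhlhe40 had one, against 53.4%. The median clock gene had 1.38 regions per 100 kb of window, and the median protein-coding gene 0.955.

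**Figure D1:**
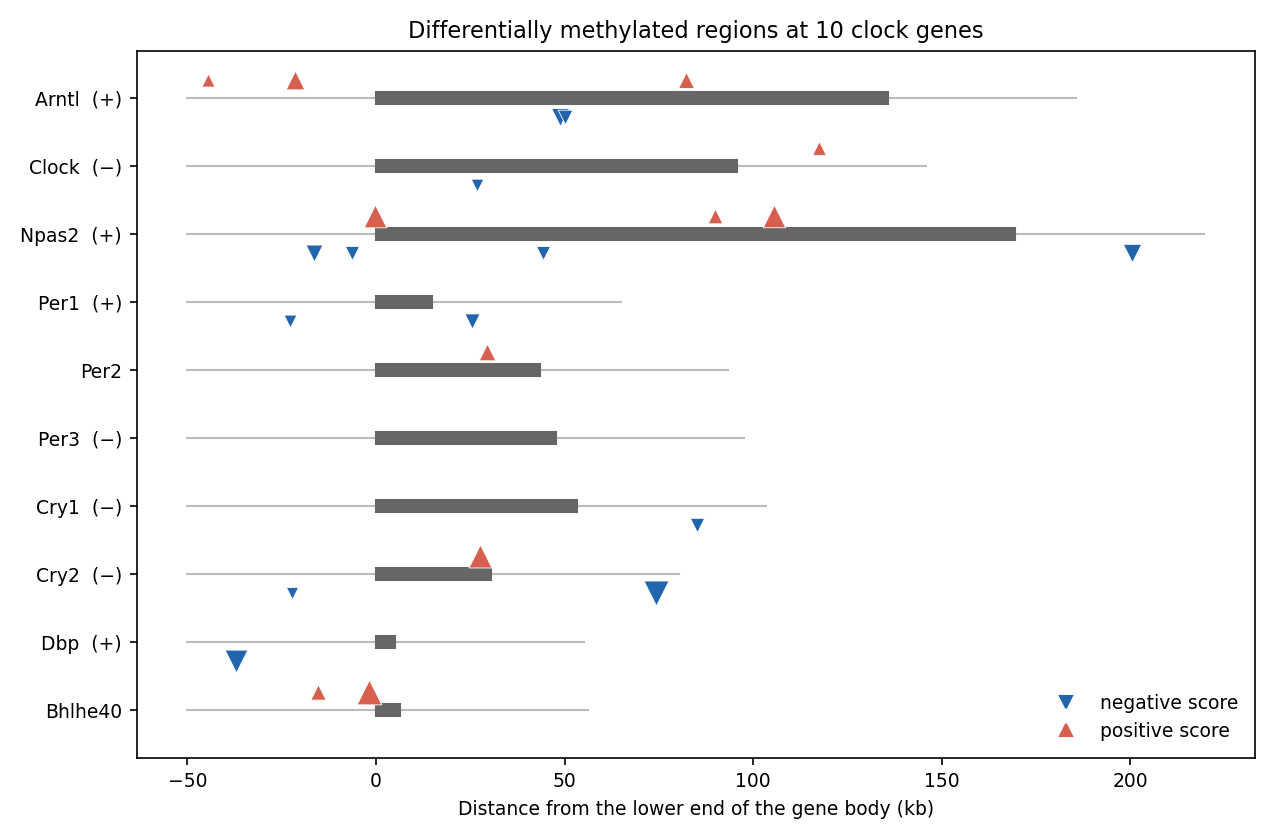
Position of each region (triangles) at the 10 clock genes, in kb from the lower-numbered end of the gene body (grey bar), with the 50 kb window on both sides as a thin line. Upward triangles have a positive score and downward ones a negative score, and a larger triangle is a larger absolute score. The strand is given in parentheses where RefSeq starts were listed. Npas2 carried 7 regions and Per3 none.

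The regions at clock genes were of both signs. A negative score was found for 13 and a positive score for 11, which made 54.2% negative (95% Wilson interval 35.1 to 72.1), against 67.4% of the whole list. The whole-list share lies inside that interval, but above the intervals of some narrower choices of region, which are given at the end. Only Per1, Cry1 and Dbp had negative regions alone, only Per2 and Bhlhe40 positive regions alone, and Arntl, Clock, Npas2 and Cry2 had both. By gene, 7 of 10 had a negative region against 58.6% of protein-coding genes, 6 of 10 a positive region against 38.1%, and 4 of 10 both signs against 28.1%. These shares over protein-coding genes are not matched on gene length.

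The median absolute score was 62.5 at clock genes and 49.4 over the list. A total of 7 of the 24 regions (29.2%) reached an absolute score of 100, against 15.5% of the list. They lay at 5 of the 10 genes, against 24.8% of protein-coding genes, a share not matched on gene length. These strong regions were positive in 5 cases (Bhlhe40, Cry2, Arntl and a pair at Npas2) and negative in 2 (Cry2 and Dbp). Over the whole list 67.2% of regions of this size were negative. The median width was 107.5 bp at clock genes and 112 bp over the list.

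**Figure D2:**
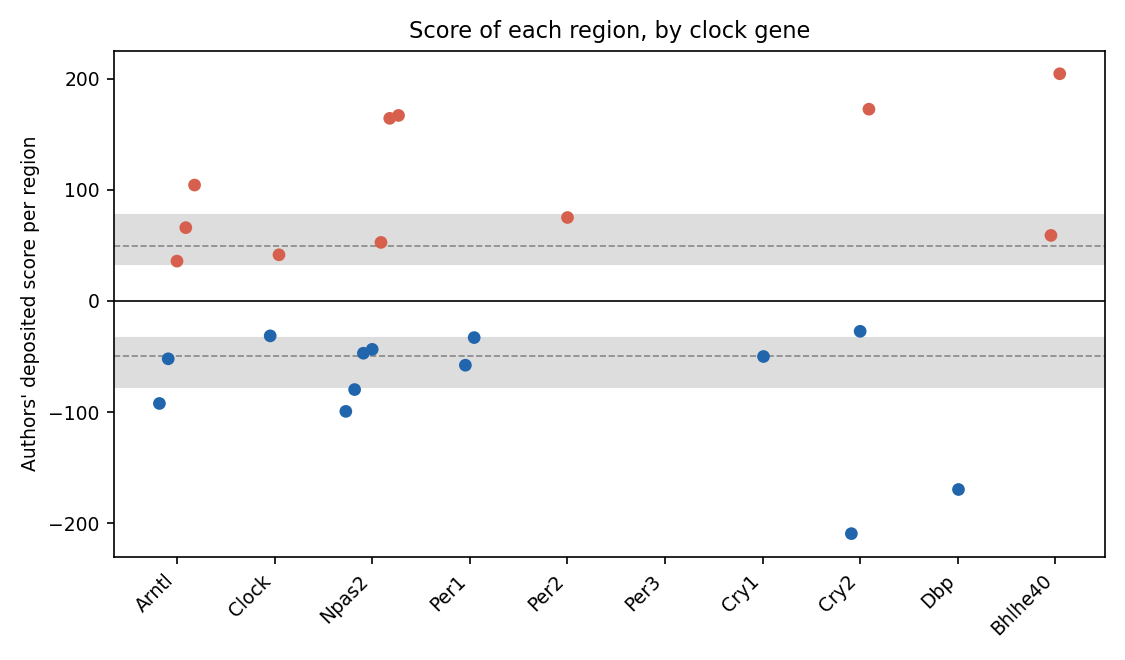
Authors' deposited score of each region (points) by clock gene, with positive scores above and negative scores below the line at 0. Grey bands run from the lower to the upper quartile of the absolute score over the whole list, 33.1 to 77.2, and dashed lines mark its median of 49.4. The points farthest from 0 belong to Cry2 (-209) and Bhlhe40 (204).

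Gene starts are where the E-boxes that drive the loop are best known. RefSeq starts were listed for 8 of the 10 genes, 12 starts in all, and for neither Per2 nor Bhlhe40. The positive region of score 204 that lay 1.73 kb from the Bhlhe40 body could thus not be placed against a start. A region lay within 5 kb of a start at Npas2 and Cry2, 2 of 8 genes, against 12.6% of the 17492 protein-coding genes with listed starts, and within 1 kb at Npas2 alone, against 3.54%. The 250 bases before a start are shown for these 2 genes and for 3 other clock genes, picked because such a stretch held an E-box or D-box. All are from RefSeq (GRCm38.p6, the assembly that mm10 names), 5′ to 3′ on the gene's own strand, and capitals mark an E-box (CACGTG), an E-box-like sequence (CACGTT, or AACGTG on the other strand) or a D-box (TTANGTAA, or TTACNTAA on the other strand). No marked match overlapped another. The stretches not printed, those of the other Per1 start and of Dbp among them, held no such match.
Npas2 (chr1:39194022-39194271, + strand): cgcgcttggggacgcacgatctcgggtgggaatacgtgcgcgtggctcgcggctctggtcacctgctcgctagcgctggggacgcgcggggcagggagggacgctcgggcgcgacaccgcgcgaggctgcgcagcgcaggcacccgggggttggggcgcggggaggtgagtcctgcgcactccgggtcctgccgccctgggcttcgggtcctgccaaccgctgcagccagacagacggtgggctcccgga
Cry2 (chr2:92434070-92434319, - strand): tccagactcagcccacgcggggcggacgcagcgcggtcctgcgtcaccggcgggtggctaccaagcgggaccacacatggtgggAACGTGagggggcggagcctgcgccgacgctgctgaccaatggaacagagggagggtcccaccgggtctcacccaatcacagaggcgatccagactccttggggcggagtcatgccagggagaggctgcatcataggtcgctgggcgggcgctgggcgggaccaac
Cry1 (chr10:85185055-85185304, - strand): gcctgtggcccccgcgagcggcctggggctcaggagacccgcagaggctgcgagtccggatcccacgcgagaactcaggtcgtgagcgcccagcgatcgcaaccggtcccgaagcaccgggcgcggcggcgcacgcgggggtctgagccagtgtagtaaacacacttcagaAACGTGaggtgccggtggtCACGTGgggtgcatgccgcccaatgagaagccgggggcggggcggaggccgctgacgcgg
Per1 (chr11:69098699-69098948, + strand): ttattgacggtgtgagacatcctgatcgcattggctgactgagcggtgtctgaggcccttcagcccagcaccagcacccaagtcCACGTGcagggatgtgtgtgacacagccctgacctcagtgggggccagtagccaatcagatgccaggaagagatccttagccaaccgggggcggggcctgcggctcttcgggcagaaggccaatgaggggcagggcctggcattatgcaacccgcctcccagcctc
Per3 (chr4:151044666-151044915, - strand): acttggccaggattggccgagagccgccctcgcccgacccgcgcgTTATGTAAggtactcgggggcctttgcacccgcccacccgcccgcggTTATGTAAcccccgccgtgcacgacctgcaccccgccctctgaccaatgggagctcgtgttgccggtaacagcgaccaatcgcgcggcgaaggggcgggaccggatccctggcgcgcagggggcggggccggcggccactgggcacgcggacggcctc

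An E-box was found before 2 of the 12 starts, 1 of the Per1 starts and that of Cry1, against 6.63% of 21263 promoters of protein-coding genes. The E-box-like sequence was found at Cry1 and Cry2, against 3.90% of promoters, and the D-box before the Per3 start only, which held 2, against 2.03%. The core of the element bound by the ROR and REV-ERB receptors (AGGTCA, or TGACCT on the other strand) was found before 1 Per1 start and 1 Clock start, against 12.8%. The glucocorticoid receptor half-site (AGAACA, or TGTTCT on the other strand) was found at none (0), against 13.7%. Only these 250 bases were searched, so sites elsewhere at the genes were not looked for. The 12 stretches are few and not all separate, since those of Arntl overlap each other. The E-box contains a CG, the dinucleotide at which mammalian DNA is methylated. The 250 bases held 8 to 40 CG with a median of 21 over the 12 clock starts, and a median of 10 over all promoters. None of the 24 regions overlapped any of these 12 stretches. The region nearest to one ended 680 bp before the Npas2 start.

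Npas2 (chr1:39193702-39363240), which encodes the partner of BMAL1 that can stand in for CLOCK, had more regions than any other of the 10 genes. It held 7 in a window of 269.5 kb, or 2.60 per 100 kb, percentile 80.9 of protein-coding genes. The strongest was positive with a score of 167 over 139 bp (chr1:39193454-39193592), 110 bp outside the gene body and 680 bp before the start whose sequence is printed above. Its absolute score stood at percentile 98.7 of the 3443 regions whose width was within 10% of its own. The second positive region of this size scored 164 over 247 bp (chr1:39299004-39299250) and lay inside the gene, 105 kb after the start. Another positive region inside the gene scored 52.7. The 4 negative regions scored -79.7 and -47.0 before the gene, the nearer of them 6.27 kb from its body, -43.5 inside it, and -99.3 beyond its far end. That last region lay within Tbc1d8, the neighbouring gene. The region at the start was thus positive and both regions farther upstream were negative. Without Npas2 the negative share at clock genes was 52.9% (31.0 to 73.8) of 17 regions.

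Clock (chr5:76209868-76305603), which encodes the usual partner of BMAL1, had 2 regions in 196 kb of window, and both were weak. A negative region of 80 bp inside the gene scored -31.4, and a positive region of 57 bp scored 41.6. The positive one lay 22.4 kb before the nearest Clock start and within Pdcl2, a neighbouring gene. Clock had 1.02 regions per 100 kb, percentile 55.3 of protein-coding genes. Its relative Npas2 thus had 7 regions to the 2 of Clock, and strongest scores of 167 against 41.6.

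Arntl (chr7:113178471-113314126), the gene of BMAL1 itself, had 5 regions in 236 kb of window, 2.12 per 100 kb or percentile 75.6. A pair of negative regions lay inside the gene 19.6 and 21.0 kb after a start, with scores of -92.2 over 315 bp (chr7:113227123-113227437) and -52.0 over 139 bp. Only 1.08 kb separated them, the closest pair of neighbours at any of the 10 genes. Farther into the gene a positive region scored 66.0. Upstream of the body lay 2 positive regions, with scores of 104 over 146 bp (chr7:113157015-113157160), 21.3 kb away, and 35.9 over 156 bp, 44.6 kb away. The score of 104 stood at percentile 88.9 among regions of like width, whereas that of -92.2, from a wider region, stood at 43.8.

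The PER genes, which encode the partners of CRY in the repressor complex, had 2 regions at Per1, 1 at Per2 and 0 at Per3, against a median of 1 per protein-coding gene window. Per1 had 1.74 regions per 100 kb, percentile 66.2 of protein-coding genes, and Per2 0.697, percentile 36.1. Per1 (chr11:69095108-69109965), also a direct target of the glucocorticoid receptor, had only negative regions, of 67 bp each, with scores of -32.9 and -57.8. Neither lay in Per1. The first was 22.7 kb upstream, within Tmem107, and the second 10.5 kb beyond the far end, within Hes7, the gene of a repressor of the segmentation clock of the embryo. The Per1 starts, 1 of which carries the E-box printed above, were 20.3 kb or more from a region. Per2 (chr1:91415977-91459351) had 1 region, positive with a score of 75.8 over 107 bp (chr1:91445416-91445522), inside the gene. Per3 (chr4:150997018-151044707) had no region in its window. The nearest was negative, of 389 bp with a score of -225 (chr4:150902017-150902405), 94.6 kb from Per3 and beyond Tnfrsf9, the gene of CD137 itself, which lies 50.9 kb from Per3 and 17.8 kb from that region.

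The CRY genes encode the main repressors of CLOCK and BMAL1. Cry2 (chr2:92403646-92434085) held the largest absolute score at any clock gene and 3 regions in 130.4 kb of window, 2.30 per 100 kb or percentile 77.4. A positive region of only 90 bp lay inside the gene 2.82 kb after its start (chr2:92431165-92431254) and scored 173. At 1.92 per bp, against a median of 0.430 over the list, its score stood at percentile 99.8 of the 5780 regions of like width. The noncoding gene D930015M05Rik overlaps it. The region of largest absolute score was negative, -209 over 676 bp (chr2:92477622-92478297), and lay 43.5 kb upstream of Cry2, nearer to Slc35c1. For its width it was ordinary, at percentile 56.0 of 242 regions. The weakest, with a score of -27.3, lay beyond the far end of Cry2 and 0.113 kb from Pex16, a peroxisome gene. Cry1 (chr10:85131700-85185054) had 1 region, of score -49.3 over 123 bp, 31.6 kb upstream of its start. Within the gene Cry1 thus had none (0), and its score was close to the median of the list.

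Dbp and Bhlhe40 are short genes with strong regions outside their bodies. Dbp (chr7:45705100-45710203), whose product activates genes through D-boxes, had 1 negative region of score -169 over 108 bp (chr7:45667857-45667964), at percentile 99.5 among regions of like width. It lay 37.1 kb upstream of Dbp and 1.46 kb from Fut2, a fucosyltransferase gene, so its assignment to Dbp rests on the width of the window. Bhlhe40 (chr6:108660629-108666925) encodes a basic helix-loop-helix repressor that competes for E-boxes. It had 2 positive regions and no negative one. The stronger scored 204 over 431 bp (chr6:108658469-108658899) and lay 1.73 kb from the gene body. Among the 827 regions of like width its absolute score stood at percentile 77.7, lower than that of the Dbp region. The weaker scored 59.0 over 104 bp, 15.3 kb away on the same side. Both lay in the noncoding gene 0610040F04Rik, and Bhlhe40 was the nearest protein-coding gene to both.

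Only 9 of the 24 regions lay inside the clock gene they were counted for, 5 positive and 4 negative, at Per2, Cry2, Clock, Arntl and Npas2. Those are 5 of 10 genes, against 28.9% of protein-coding genes. By length they were all 3 of the genes longer than 60 kb, a class in which 75.2% had a region in the body, 2 of the 5 from 10 to 60 kb, against 27.4%, and neither of the 2 under 10 kb, against 6.41%. With 5 kb on both sides 6 of 10 clock genes had a region, against 35.1% of protein-coding genes, and with 100 kb all 10 had, against 81.2%. A further 4 regions lay in another protein-coding gene, and 11 in none, so that 13 of the 24 (54.2%) lay in a protein-coding gene, against 51.1% of the list. For 7 regions another protein-coding gene was nearer than the clock gene, among them both regions of Per1 and that of Dbp. The regions closest to the edge of the window were a score of 35.9 at Arntl, 44.6 kb away, and -209 at Cry2, 43.5 kb away. Just beyond it lay a score of 129.5 at Cry2, 50.7 kb away, and one of -112 at Bhlhe40, 51.8 kb away. This last one was of the sign that Bhlhe40 lacked within the window.

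**Figure D3:**
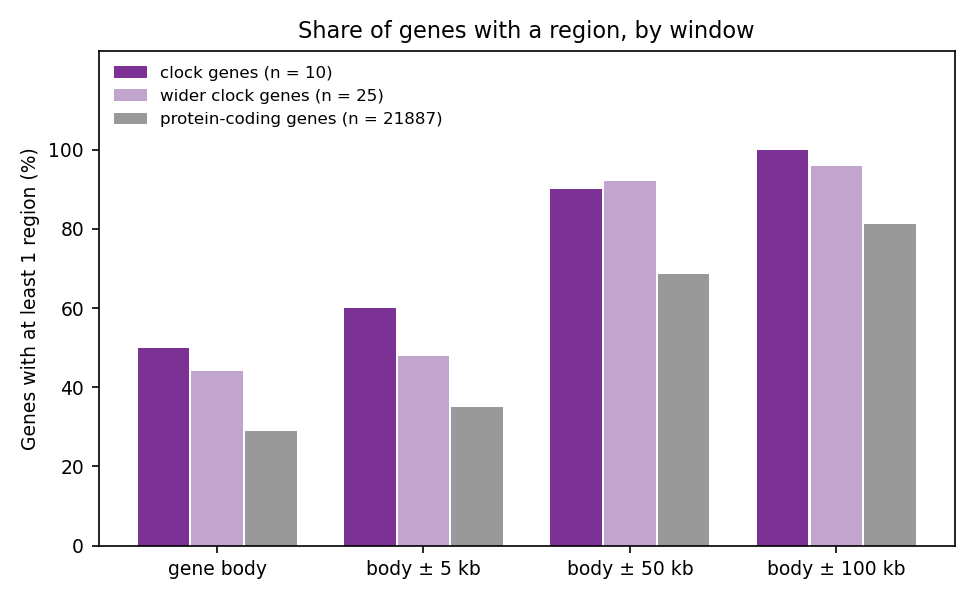
Percent of genes with at least 1 region in the gene body alone or with 5, 50 or 100 kb added on both sides, for the 10 clock genes, 25 further clock pathway genes and all 21887 protein-coding genes. With 50 kb the shares were 90%, 92% and 68.5%, and they are not matched on gene length.

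A further 25 genes of the clock pathway were described in the same way. At least 1 region was found at 23 of them (92%), against 68.5% of protein-coding genes, with Nr1d2 and Sirt1 at 0. By length, all 3 under 10 kb had one, against 53.4%, and 14 of the 16 from 10 to 60 kb, against 71.9%. All 6 longer than 60 kb had one, against 89.2%. The 92 regions at these 25 genes were negative in 75% (65.3 to 82.7), against 67.4% of the list, which lies inside that interval. Of the 92, 21 lay only in another protein-coding gene, and for 32 another protein-coding gene was nearer. The median absolute score was 50.9. An absolute score of 100 was reached by 12 of the 92 regions (13.0%), against 15.5% of the list. They lay at 8 of the 25 genes (32%), against 24.8% of protein-coding genes, a share not matched on gene length. Of these 12, 11 were negative, whereas 5 of the 7 at the core genes were positive. That contrast compares small counts from the same 2 libraries and was not tested. Regions at Ppargc1a, Rora and Btrc, all longer than 60 kb, made up 40 of the 92, and without them 76.9% of the other 52 were negative.

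The receptor loop that drives Arntl rhythmically had 23 regions, 14 negative and 9 positive. Rora, which encodes an activator of Arntl, held 17 of them over 835 kb of window, 10 negative and 7 positive, with scores between -117 and 114. Nr1d1, which encodes the repressor REV-ERBα, had 4, of which the strongest scored -180 over 209 bp (chr11:98768145-98768353). It lay in the body of Nr1d1 and also of Thra, a thyroid hormone receptor gene that overlaps it, so it belongs to both. Rorb had 2 negative regions (stronger score -76.5).

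The D-box factors related or opposed to DBP had 14 regions, 12 of them negative, in a list that is 67.4% negative as a whole. Close neighbours of the same sign were counted separately, with negative pairs 0.225 kb apart at Tef, 0.129 kb at Hlf and 0.296 kb at Nfil3. Tef, a relative of Dbp, had 5 negative and 1 positive region, 4.83 per 100 kb or percentile 96.7 of protein-coding genes. Its strongest, -245 over 207 bp, lay beyond the far end of the gene and 1.23 kb from Tob2. Hlf, the other relative, had 4 negative and 1 positive region, 4 of the 5 inside the gene and the strongest with a score of -70.2. Nfil3, which encodes the D-box repressor, had 3 negative regions, 2 of them 4.41 and 4.98 kb before its start with scores of -65.9 and -18.4. Starts were listed for 22 of the 25 genes. Of these 22, only Nfil3 (1) had a region within 5 kb of a start, against 12.6% of protein-coding genes with listed starts.

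The kinases and ubiquitin enzymes that set the stability of PER and CRY had 28 regions, 21 of them negative (75%, against 67.4% of the list). Btrc, which encodes an F-box protein that targets phosphorylated PER, had 9, including the largest absolute score at any gene described here, -402 over 360 bp (chr19:45549107-45549466). That region lay 15.8 kb from Btrc and 2.81 kb from Poll, and another of -105, 47.0 kb away, lay in Fbxw4. Inside Btrc the strongest scored -139. Csnk1a1 had 1 negative region (-209.9), 30.3 kb from the gene. Csnk1e, whose product phosphorylates PER, had 4 negative and 1 positive region, none reaching an absolute score of 100. Of these, the scores of -99.6 and 61.6 lay within Tmem184b and that of -84.6 within Kcnj4. Fbxw11, a relative of Btrc, had 2 regions of each sign. Usp2, which encodes a deubiquitinating enzyme, had 2 positive regions and no negative one, but neither lay in Usp2. That of 69.0 lay within Thy1, 22.4 kb away, and that of 71.8 lay 35.1 kb away and 3.79 kb from Mcam.

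The remaining genes included relatives of the core set. Bhlhe41, the relative of Bhlhe40, had 1 weak negative region (-36.4), where Bhlhe40 had 2 positive ones. That negative region lay 38.1 kb from Bhlhe41 and within Rassf8. Arntl2, the relative of Arntl, had 2 negative regions, the stronger (-102) within Stk38l. Timeless, the relative of a fly clock gene, had 2 negative regions, the stronger (-216) within Stat2. Among cofactors and outputs, Ppargc1a, which encodes a coactivator of thermogenesis and of the ROR receptors, had 14 regions in 762 kb of window. That made 1.84 per 100 kb, percentile 69.1 of protein-coding genes. Of the 14, 12 were negative and 13 lay inside the gene body. Apart from a region of -23.2, those inside the body lay before the only listed start. The strongest scored -241 over 508 bp (chr5:51894131-51894638), 326 kb before that start. Among the 537 regions of like width its absolute score stood at percentile 80.9.

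**Figure D4:**
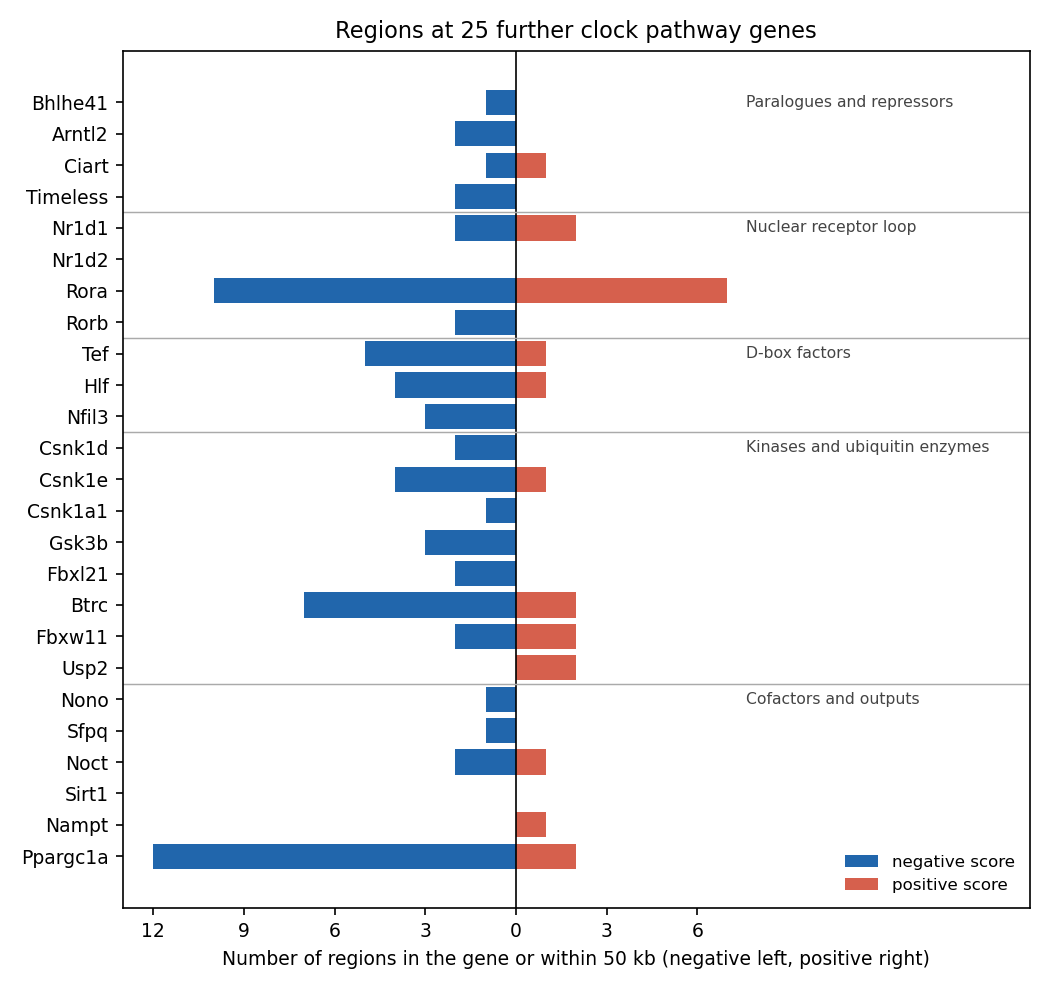
Number of regions with a negative score (left of 0) and a positive score (right of 0) in the body or within 50 kb of 25 further clock pathway genes, grouped by role. Ppargc1a, Rora and Btrc have the most, with 14, 17 and 9, and Nr1d2 and Sirt1 have none.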

How the data were processed

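For each region, the list deposited by the authors holds coordinates and 1 signed score. The submitters' processing notes name mm10 as the build. The aligner, the region caller, the coverage behind a region and the meaning of its score: none is given in the sources used here, so no coverage filter or test was applied. Starts were read as BED and are printed counting from 1. The 10 symbols and the 25 of the wider list were matched directly in a RefSeq table of GRCm38.p6 (49943 genes on chromosomes). That table has no exons, so exons, introns and untranslated regions were not told apart. A region counted for every gene whose body, with 50 kb on both sides, it overlapped. Promoter sequences and strands came from a RefSeq table of the same build, in which Per2 and Bhlhe40 had no entry. Percentiles are over all protein-coding genes or all regions of the list, with ties counted at their middle. Intervals are 95% Wilson intervals. They cover counting error alone, since regions are no replicates of a library.

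The members and lists were chosen with earlier results of these data known. All 10 members are named, and, of the wider list, genes with a region of absolute score 100 or more, the 3 with most regions and those with none. Other genes of the planned wider list are not reported here. Coding neighbours that hold a region or lie nearer to it are named for all members, but only for some regions of the wider list. A region of the wider list given without a neighbour may thus lie in or nearer to another protein-coding gene. Other wider genes, noncoding genes and Tnfrsf9 were named after their values were seen. Overlap counting was tested on simulated regions against direct counting. Alternatives changed the window, the minimum score or width, the assignment to genes, and the merging of neighbours. Python 3.11.15, pandas 2.3.3, scipy 1.17.1 and matplotlib 3.10.9 were used.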

Additional observations from a re-analysis of the deposited data

How the results depend on the processing

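The count of clock genes with a region was 9, and the counts followed the window. In the gene body alone, 5 clock genes with 9 regions and 11 of the wider genes (44%) had one, against 28.9% of protein-coding genes. Those 11 include all 6 wider genes longer than 60 kb, a class in which 75.2% had a region in the body. With 5 kb on both sides there were 11 regions at clock genes. Of the wider genes 12 (48%) had one, against 35.1% of protein-coding genes. With 100 kb the regions at clock genes numbered 46. Limited to an absolute score of 100 or more, 5 clock genes with 7 regions and 8 wider genes were left. The negative share then fell to 28.6% (8.22 to 64.1), against 54.2% over all 24 and 67.2% of list regions of that size. Limited to a width of at least 100 bp, 15 regions were left. When a region counted only for its nearest protein-coding gene, 15 wider genes had one, and Per1 and Dbp had none. No share over all protein-coding genes is given for that assignment. The negative share was between 36.4% and 56.5% under the other alternatives that changed the regions counted, inside the interval around its main value. These alternatives share regions with the main choice. The whole-list share of 67.4% lay above the interval with 5 kb on both sides (36.4%, 15.2 to 64.6). It also lay above that by nearest protein-coding gene (41.2%, 21.6 to 64.0). It lay inside the intervals for the gene body alone, for 100 kb and for the minimum width. Merging neighbours of 1 sign within 500 bp could change nothing at the clock genes, where the closest neighbours are 1.08 kb apart, and cannot lower a count of genes with a region. No paired analysis was possible because each group has 1 library. For the same reason no replicate could be left out. The depth of both libraries is unknown.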
